A study of Arabidopsis thaliana with 4 samples.

Results

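The genes described here are 10 core cell cycle genes of Arabidopsis thaliana, 3 encoding cyclin-dependent kinases (CDKs), 2 encoding B-type cyclins and 5 encoding D-type cyclins. They are defined by name, with no measured value in the rule, and were taken from each library's table by gene identifier (such as AT3G48750) or, where a library gave the gene only under a serial number of its own, by the locus that overlapped the gene span by at least 80.0% in both directions. A matching locus was found in every library for 9 of the 10 genes. A usable value in every library remained for 8, out of 27110 genes joined across the series, and 7 of these had enough signal to be tested, out of 14701.

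Cyclins are unstable proteins that rise and fall with the cell cycle and switch on the CDKs they bind. In plants, D-type cyclins act with the A-type kinase at the start of the cycle, where the complex phosphorylates the retinoblastoma protein and frees E2F factors to switch on replication genes. B-type cyclins and the plant-specific B-type kinases act later, at entry into mitosis. Transcripts of many of these genes mark dividing cells of meristems and young organs, a small share of the cells of a whole plant. CURLY LEAF (CLF) is a histone methyltransferase of Polycomb repressive complex 2, which deposits the repressive mark H3K27me3.

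RNA recovered with an anti-Myc antibody from nuclei of crosslinked plants was sequenced in 4 libraries (RNA immunoprecipitation, RIP). The 2 control RIP libraries (the controls) came from Col-0 plants labelled wild type, and the 2 CLF RIP libraries came from clf-28 mutants carrying Myc-tagged CLF, a line described as looking like Col-0. All plants were 3 weeks old and grown in long days on sucrose medium. Myc-CLF is driven by a promoter not given in the sources used here. The comparison asks which RNAs were recovered more with tagged CLF than without it. None of the 4 libraries is of input or total RNA, and the plant line differs together with the tag. Recovery with CLF and a different RNA level in the line therefore cannot be told apart. The levels are FPKM as deposited, fragments normalised to transcript length and to the size of the library.

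Several facts of the whole series bear on every value. The deposited tables are named for the opposite group to the one their labels give. Groups here follow the labels, and every direction turns if the labels are wrong. CLF itself (AT2G23380) was listed with 25.9 and 27.1 FPKM in the controls, against 4.24 and 25.7 FPKM in the CLF RIP, so its RNA does not tell the groups apart. The scaling depth recovered from the values of loci with few reads was 9.91 and 9.58 M fragments (M for mega) for the controls, against 4.21 and 4.20 M for the CLF RIP, a ratio of 2.32, so counting error is larger in the CLF RIP. The labels do not tell whether replicate libraries were made from different plants, so p-values reflect only how far these libraries differ, a spread that may be technical. In whole-plant material, fewer cells of a type and less RNA per cell cannot be told apart.

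None of the 7 tested genes rose or fell between the groups in the limma test with Benjamini-Hochberg adjustment at 0.05, where 0.701% of all tested genes (103) were called higher and 0.565% (83) lower in the CLF RIP. The split of calls over all genes turned to 80 higher and 101 lower under quantile normalization, 84 and 119 under median-of-ratios scaling, and 48 higher against 74 lower where structural RNA was left out. The smallest adjusted p among the 7 in limma was 0.286. At an unadjusted limma p under 0.05 the count was also 0 of 7, against 24.7% of all tested genes. On the log2(FPKM + 1) scale, 3 of the 7 differences were above 0 and 4 below, with a median of -0.19, beside a median of 0.25 over all 14701 genes. Of those 14701 differences, 9296 were above 0 and 5405 below. In 1 gene, CYCD2;1, both CLF RIP libraries lay above both control RIP libraries, which 40.6% of all tested genes did. In 3 genes, CDKB2;1, CYCD1;1 and CYCD3;2, both lay below, which 18.9% of all tested genes did. These counts from 7 genes were not tested against the background.

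**Figure D1:**
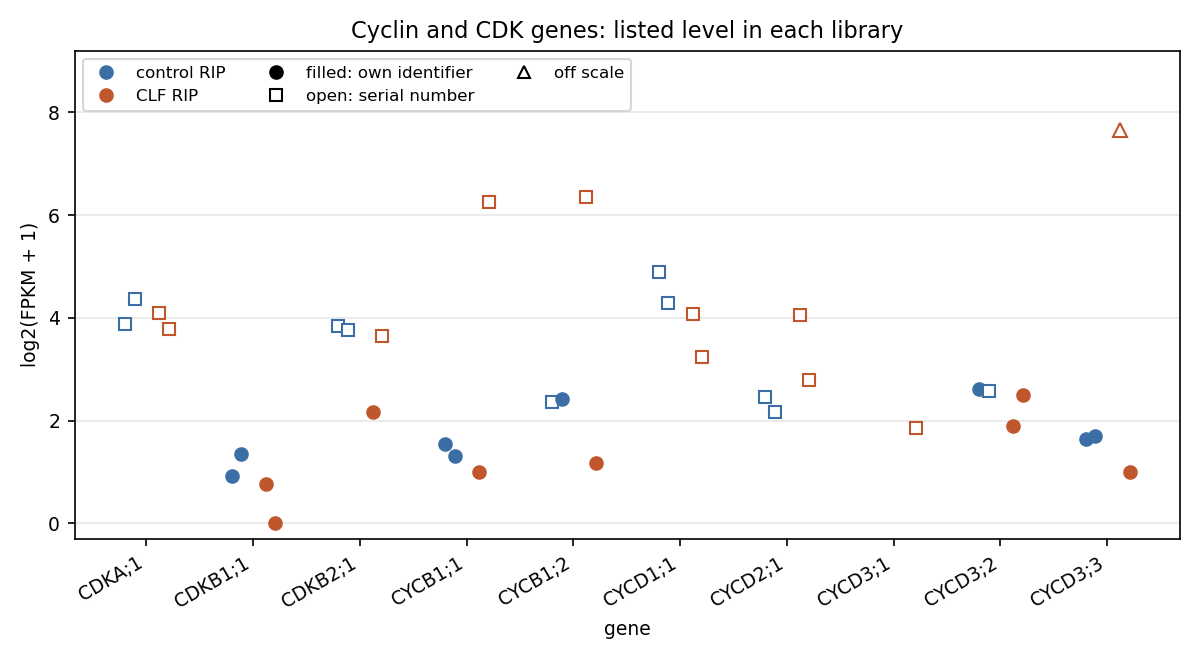
Level of each of the 10 genes on the log2(FPKM + 1) scale, 1 point per library, in blue for the 2 control RIP libraries and in orange for the 2 CLF RIP libraries. Filled circles are values under the gene's own identifier and open squares those under a serial number, the triangle stands for 25693.5 FPKM, which is off the scale, and CYCD3;1 had a matching locus in 1 library.

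How a library listed a gene went with its value. Of the 40 pairs of gene and library, 16 were under the gene's own identifier, 21 under a serial number and 3 had no matching locus. Only CDKB1;1 was under its own identifier throughout, 3 genes were under a serial number throughout, and 5 were listed both ways. This was compared over genes joined across the series that were listed one way in 1 library of a group and the other way in its partner. Only genes above 0 in both libraries, with at least 1 FPKM in 1 or both, were counted. The serial-number value was the higher one in 72.5% of 1845 control genes and in 77.0% of 2184 CLF RIP genes. It was more than 4-fold higher in 9.0% and 13.2% of them. Genes left out of the joined set, such as CYCD3;3, are not among them. The listing of each of the 10 genes is given below with its values.

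CDKA;1 (AT3G48750) encodes the A-type kinase, which carries the PSTAIRE motif of the yeast cell cycle kinase and is needed through the whole cycle. Its locus ran from 18071536 to 18074641 on chromosome 3 of TAIR10 in the control RIP. It was under a serial number in all libraries, at 13.8 and 19.8 FPKM in the controls, against 16.1 and 12.9 FPKM in the CLF RIP. The groups overlapped, and the highest value and the second lowest were both from the control RIP. The log2 difference was -0.19 (SE 0.29, 95% interval -1.02 to 0.64, n = 2 and 2, adjusted p = 0.702 in limma), and without control RIP replicate 2 it turned to 0.05. Its error was the smallest of the 7.

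The B-type kinases are found only in plants and act around the entry into mitosis. CDKB1;1 (AT3G54180, chromosome 3, 20059796 to 20061438), which also acts in divisions of the stomatal lineage, was at 0.901 and 1.55 FPKM in the controls, against 0.706 and 0 FPKM in the CLF RIP. Both CLF RIP values were the lower ones, and the gene missed the minimum for the test, which was 1 FPKM in at least 2 libraries. These levels rest on at most 12.8 and 21.4 reads in the control RIP and at most 4.27 in CLF RIP replicate 1. Such read numbers came from FPKM, the recovered depth and the gene span less 206 bp, an offset fitted with the depth. Fits that included the gene gave an adjusted p in limma of 0.602 with no filter (log2 difference -0.75) and of 0.268 with structural RNA left out (-0.91).

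CDKB2;1 (AT1G76540, chromosome 1, 28720328 to 28722521), known for its part in shoot meristem organisation, was at 13.4 and 12.6 FPKM in the controls. In the CLF RIP it was at 3.52 FPKM in replicate 1, under its own identifier, and at 11.6 FPKM in replicate 2, under a serial number like both control values. Both CLF RIP values were below both control values, but 1 of them only narrowly, and that was the one listed in the same way as the controls. The log2 difference was -0.89 (SE 0.58, 95% interval -2.58 to 0.81, n = 2 and 2, adjusted p = 0.406 in limma). Leaving out CLF RIP replicate 1 gave -0.15, and leaving out CLF RIP replicate 2 gave -1.63.

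Both B-type cyclin genes had 1 CLF RIP library far above the other, and in each case the high value was under a serial number and the low one under the gene's own identifier. CYCB1;1 (AT4G37490, chromosome 4, 17621886 to 17624285) encodes a mitotic cyclin whose promoter and destruction box are widely used to mark cells about to divide. It was at 1.93 and 1.47 FPKM in the controls, at 1.005 FPKM in CLF RIP replicate 1 and at 75.95 FPKM in CLF RIP replicate 2. The 3 values under its own identifier lay close together, with the CLF RIP one the lowest, and the serial-number value stood apart from them. The log2 difference was 2.21 (SE 1.97, 95% interval -3.51 to 7.92, n = 2 and 2, adjusted p = 0.523 in limma). Leaving out CLF RIP replicate 2 gave -0.42, and leaving out CLF RIP replicate 1 gave 4.84, so that 1 library set the direction.

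CYCB1;2 (AT5G06150, chromosome 5, 1859279 to 1861649), a mitotic cyclin of the same subgroup, showed the pattern with the CLF RIP libraries exchanged. It was at 4.17 FPKM (serial number) and 4.34 FPKM (own identifier) in the control RIP, at 80.5 FPKM (serial number) in CLF RIP replicate 1 and at 1.28 FPKM (own identifier) in CLF RIP replicate 2. In the control RIP the way of listing made little difference to this gene, whereas the CLF RIP values lay on either side of the controls. Inside the gene, a separate locus of only 106 bp had 424 FPKM in CLF RIP replicate 1 and 425 FPKM in replicate 2. FPKM on so short a locus is no guide to the level of the gene. In these libraries 1 read on 75 bp was worth 25692.9 and 25764.5 FPKM. The log2 difference was 1.37 (SE 1.93, 95% interval -4.23 to 6.98, n = 2 and 2, adjusted p = 0.680 in limma). Leaving out CLF RIP replicate 1 turned it to -1.21, and leaving out CLF RIP replicate 2 raised it to 3.96.

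**Figure D2:**
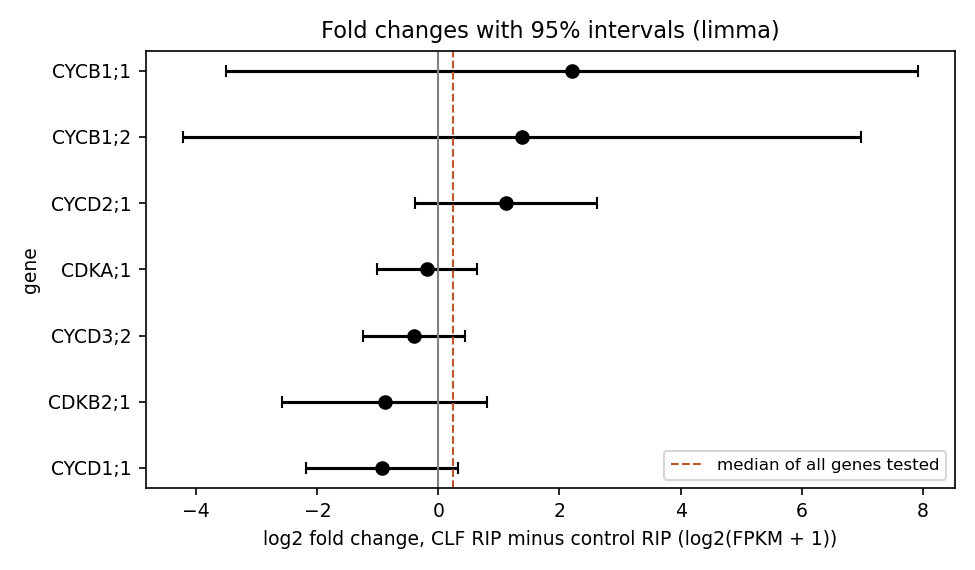
Difference between CLF RIP and control RIP on the log2(FPKM + 1) scale for the 7 tested genes, with limma's 95% intervals from 2 libraries a group. Every interval spans 0, those of the B-type cyclin genes reach from -3.51 to 7.92 and from -4.23 to 6.98, and the dashed line is the median of all tested genes at 0.25.

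The D-type cyclins were the subgroup with the most members and with differences on both sides of 0. CYCD1;1 (AT1G70210, chromosome 1, 26439864 to 26442829) encodes a cyclin of the early cycle that has a role in the first divisions during germination. It was listed over the same span in all libraries under serial numbers, at 28.7 and 18.6 FPKM in the controls, against 15.98 and 8.43 FPKM in the CLF RIP. Both CLF RIP values lay below both control values. The libraries of each group also differed, the controls by 1.54-fold and the CLF RIP libraries by 1.90-fold. The fold was 0.525 and the log2 difference -0.93 (SE 0.43, 95% interval -2.18 to 0.33, n = 2 and 2, adjusted p = 0.286 in limma). It stayed below 0 under every alternative that gave it a value, from -1.35 to -0.50. A gene that overlaps the longer reference span of CYCD1;1, AT1G70209, ended at 26439796, before the start of the locus that gave these values. AT1G70209 was listed at 16.3 FPKM in control RIP replicate 1 and at 0 in the other libraries.

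CYCD2;1 (AT2G22490, chromosome 2, 9553781 to 9556145 in control RIP replicate 1, with starts from 9553742 to 9553803 elsewhere), a cyclin of the early cycle known to respond to sucrose, had a difference of the opposite sign. It was at 4.50 and 3.51 FPKM in the controls, against 15.7 and 5.95 FPKM in the CLF RIP, under serial numbers throughout. Both CLF RIP values were the higher ones, and they differed from each other by 2.65-fold. The log2 difference was 1.11 (SE 0.52, 95% interval -0.39 to 2.62, n = 2 and 2, adjusted p = 0.286 in limma). It stayed above 0 under every alternative, from 0.48 without CLF RIP replicate 1 to 1.75 without CLF RIP replicate 2.

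The 3 genes of the CYCD3 subgroup, which respond to cytokinin and keep cells of young lateral organs dividing, could be compared to different degrees. CYCD3;2 (AT5G67260, chromosome 5, 26836148 to 26837811) was at 5.12 FPKM (own identifier) and 4.99 FPKM (serial number) in the controls, against 2.72 and 4.67 FPKM (own identifier) in the CLF RIP. Both CLF RIP values were below the control values, 1 of them only slightly. The log2 difference was -0.40 (SE 0.29, 95% interval -1.24 to 0.44, n = 2 and 2, adjusted p = 0.447 in limma), and without CLF RIP replicate 1 it was -0.09. At most 74.0 and 69.7 reads stood behind the control values and at most 16.7 and 28.6 behind those of the CLF RIP.

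CYCD3;3 (AT3G50070, chromosome 3, 18565134 to 18566780) was at 2.12 and 2.28 FPKM in the controls and at 0.998 FPKM in CLF RIP replicate 2, all under its own identifier. In CLF RIP replicate 1 the matching locus had a serial number and 25693.5 FPKM. In that library a single read on a locus of 75 bp was worth 25692.9 FPKM, so the value is nearly the same as that of 1 short read, and the gene was left out of the test. The low value of CLF RIP replicate 2 rests on at most 6.04 reads, and those of the control RIP on at most 30.3 and 31.4. Loci of 75 bp, each worth 1 read, lay in the spans of 4 of the 10 genes in CLF RIP replicate 1, of 4 in CLF RIP replicate 2, of 2 in control RIP replicate 2 and of none in control RIP replicate 1.

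For CYCD3;1 (AT4G34160), the best studied gene of the subgroup, the files allow no comparison. A locus that matched it was present in CLF RIP replicate 2 alone, on chromosome 4 from 16357639 to 16359555, at 2.61 FPKM. In the other libraries the gene was part of a longer locus that started at 16354946 and also covered its neighbour AT4G34150, with an overlap of 46.3% to 46.4%. That longer locus was listed at 228 and 223 FPKM in the controls and at 38.4 FPKM in CLF RIP replicate 1. A shorter locus that ended before the gene span was also listed in every library. It was at 71.1 and 70.0 FPKM in the controls, against 28.7 and 26.3 FPKM in the CLF RIP. In CLF RIP replicate 2 the remaining stretch of the longer locus, which ended at 16357293 before the gene's matching locus, was at 79.9 FPKM. Most of the listed signal in that library thus lay over the neighbour, and how the joined values divide between the genes cannot be read from the tables.

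**Figure D3:**
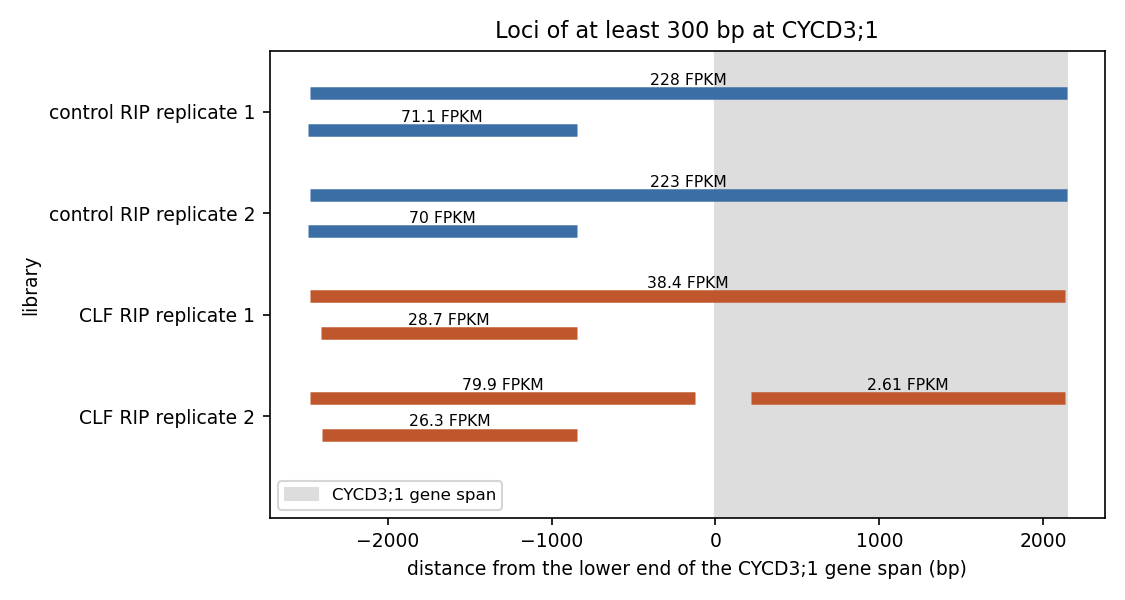
Loci of at least 300 bp around CYCD3;1 in each library, drawn to scale by distance from the lower end of the gene span (grey), with their FPKM. A joined locus covers the gene and its neighbour in the 2 control RIP libraries (228 and 223 FPKM) and in CLF RIP replicate 1 (38.4 FPKM), and separate loci are listed in CLF RIP replicate 2 (79.9 and 2.61 FPKM). Every library also lists a shorter locus before the gene span (71.1 and 70.0 FPKM in the control RIP, 28.7 and 26.3 FPKM in the CLF RIP).

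Ranked by mean level in the control RIP, AT1G70210 (the D1 cyclin) stood first at 23.6 ± 7.15 FPKM (SD, n = 2), followed by the A-type kinase at 16.8 ± 4.21 FPKM, and the libraries of these genes overlapped. The B2 kinase gene AT1G76540 came next at 13.0 ± 0.574 FPKM, separate from both neighbours in the order. The gene AT5G67260 followed at 5.06 ± 0.0961 FPKM, then AT5G06150 at 4.25 ± 0.12 FPKM and AT2G22490 at 4.01 ± 0.702 FPKM, with the last pair overlapping. The lowest were AT3G50070 at 2.20 ± 0.110 FPKM, AT4G37490 at 1.70 ± 0.320 FPKM and AT3G54180 at 1.23 ± 0.459 FPKM, and the last pair overlapped. A D-type cyclin and the A-type kinase thus led the order as listed, and a mitotic cyclin and the B1 kinase closed it. In both control libraries AT1G70210, the A-type kinase and AT1G76540 were under serial numbers. AT3G50070, AT4G37490 and AT3G54180 were under their own identifiers in both, so listing and rank cannot be told apart for these genes. CYCD3;1 had no matching locus in the controls and is not in the order.

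In the CLF RIP the libraries of several genes lay far apart, and nearly all neighbours in the order overlapped. Leaving aside 3 genes whose libraries differed most, the A-type kinase was at 14.5 ± 2.26 FPKM (SD, n = 2), AT1G70210 at 12.2 ± 5.34 FPKM, AT2G22490 at 10.8 ± 6.92 FPKM and AT1G76540 at 7.57 ± 5.72 FPKM, each overlapping the next. AT5G67260 followed at 3.69 ± 1.38 FPKM, overlapping AT1G76540, and AT3G54180 was lowest at 0.353 ± 0.499 FPKM. The values of the genes left aside, AT4G37490 and AT5G06150, spanned 75.6-fold and 63.0-fold between the CLF RIP libraries, and AT3G50070 had the value of 1 short read in 1 of them. Over all tested genes the median gap between libraries of a group was 0.252 for the controls and 0.359 for the CLF RIP on the log2(FPKM + 1) scale.

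Values under the gene's own identifier alone were compared as well, a choice made after the values had been seen and carrying no test. In this view 5 of the 10 genes had a value in both groups, AT3G54180, AT4G37490, AT5G06150, AT5G67260 and AT3G50070. In 5 of 5 every CLF RIP value was below every control RIP value, as in 29.0% of 4930 genes of the series with such values. That share was 23.6% for genes with 2 such values in each group, as AT3G54180 had. It was 30.3% to 39.3% for genes with fewer values, as the others had. This view leaves out the serial-number values, which within a CLF RIP pair were the higher ones in 77.0% of the 2184 joined genes compared above. The part of that selection in the count was not tested.

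The rest of the cell cycle machinery was read from 9 further lists with 91 genes, of which 75 were joined across libraries and 60 tested. Of these 60, 29 differences were above 0 and 31 below, with a median of -0.02 on the log2(FPKM + 1) scale. That median was -0.12, -0.19 and -0.30 under the 3 other scalings and 0.35 over the 26 genes left by a minimum of 5 FPKM. Over all 14701 tested genes 9296 differences were above 0 and 5405 below, the background for the counts of each list that follow. In limma 1 gene was called higher in the CLF RIP and 0 lower, and 6 (10.0%) had an unadjusted p under 0.05, beside 24.7% of all tested genes. Both CLF RIP libraries lay above both controls in 15 of the 60 (25%, beside 40.6% of all tested genes) and below in 11 (18.3%, beside 18.9%). Of the 27 genes named from these lists, 16 were under a serial number in all libraries and 1, SIM, under its own identifier in all, and for the other 10 the listing is given with the values where it goes with the group or with a library that stands apart.

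The gene called higher was CDKG;1 (AT5G63370, chromosome 5, 25383906 to 25387252), a kinase of the G class with known roles in splicing and in pairing of chromosomes at meiosis. It was at 74.5 and 76.5 FPKM in the controls, against 199.7 and 194 FPKM in the CLF RIP. The libraries of each group lay close together and the groups were well apart. It rose 2.58-fold, a log2 difference of 1.37 (SE 0.10, n = 2 and 2, adjusted p = 0.0396 in limma). The adjusted p ranged from 0.027 to 0.424 over the alternatives, and the call was lost under quantile normalization (0.0501), with no filter (0.0818), without trend and robust prior (0.0902), with structural RNA left out (0.0987), with the replicate number as a block (0.215) and whenever a library was left out (0.129 to 0.424). Of the other 7 tested kinases, none was called. CDKE;1, a Mediator kinase, was at 31.3 and 24.5 FPKM in the controls, against 33.1 and 40.2 FPKM in the CLF RIP. The second B2 kinase gene, CDKB2;2, was at 2.57 and 6.57 FPKM in the controls, against 2.33 and 1.40 FPKM in the CLF RIP, lower in both CLF RIP libraries. Its control values were under serial numbers and its CLF RIP values under its own identifier, so listing and group cannot be told apart. The list's median was 0.18 as deposited and was below 0 under each of the 3 other scalings (-0.22 to -0.08).

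No further D-type cyclin was called among 4 tested of 5 (median 0.08, below 0 under 2 of the 3 other scalings). CYCD5;1 was at 2.55 and 4.26 FPKM in the controls, against 6.27 and 5.22 FPKM in the CLF RIP (the last under its own identifier), while CYCD4;1 and CYCD6;1 were between 0.996 and 1.53 FPKM in all libraries. No A-type cyclin was called among 7 tested of 10 (median -0.04, from -0.39 to -0.25 under the other scalings). CYCA2;4 was at 1.79 and 1.24 FPKM in the controls, against 0.993 and 0.768 FPKM in the CLF RIP. The remaining A-type examples each had 1 library apart from the rest, CYCA1;1 at 21.2 FPKM in control RIP replicate 1 and from 2.02 to 3.49 FPKM elsewhere, and CYCA3;1 at 10.2 FPKM in CLF RIP replicate 2 and from 0.928 to 1.36 FPKM elsewhere. Both replicate 2 libraries listed CYCA3;1 under a serial number and both replicate 1 libraries under its own identifier.

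Of the further B-type cyclins 3 of 9 were tested, none was called, and the differences were below 0 in 3 of 3 (median -0.11, from -0.76 to -0.14 under the other scalings). CYCB2;3 had the largest log2 difference among the named genes whose groups did not overlap. It was at 7.25 and 15.8 FPKM in the controls, against 1.87 and 0.963 FPKM in the CLF RIP, with a log2 difference of -2.31 (SE 0.47, n = 2 and 2, adjusted p = 0.122 in limma). CYCB2;2 and CYCB2;4 lay between 0.690 and 2.102 FPKM in all libraries, with overlapping groups, and CYCB2;4 was under serial numbers in the controls and its own identifier in the CLF RIP. Of 14 CDK inhibitors and regulators 5 were tested and none was called (median -0.05, from -0.33 to -0.14 under the other scalings). The inhibitor gene KRP3 was at 3.05 and 2.72 FPKM in the controls, against 1.02 and 1.80 FPKM in the CLF RIP. The control values of KRP3 were under serial numbers and its CLF RIP values under its own identifier, so here too listing and group cannot be told apart. SIM, an inhibitor that promotes endoreduplication, was at 7.69 and 7.58 FPKM in the controls, against 10.8 and 8.45 FPKM in the CLF RIP, and CYCH;1, the cyclin partner of the CDK-activating kinase, ranged from 5.46 to 18.0 FPKM with overlapping groups.

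The genes of the retinoblastoma and E2F module, which acts downstream of D-type cyclin kinases, had the highest median of the 9 lists, 0.61, with 6 of 7 tested differences above 0 and none called in limma. The median stayed above 0 under the other scalings (0.20 to 0.34). Over all tested genes 9296 of 14701 differences were above 0. DPA, a dimerisation partner of E2F factors, was at 4.33 and 3.35 FPKM in the controls, against 8.96 and 10.4 FPKM in the CLF RIP (adjusted p = 0.118 in limma). E2FA, an activating E2F factor, was at 2.93 and 3.68 FPKM in the controls, against 6.17 and 9.47 FPKM in the CLF RIP (adjusted p = 0.168 in limma). DEL2, an atypical E2F factor, was at 3.82 and 1.99 FPKM in the controls, against 4.92 and 5.71 FPKM in the CLF RIP. These 3 genes, named for the smallest p, were among 4 of 7 with both CLF RIP values above both control values, which 40.6% of all tested genes showed. In 1 of 7, DEL3, both were below (1.47 and 1.12 FPKM against 0.849 and 0.638 FPKM), as in 18.9% of all tested genes. The control values of DEL3 were under serial numbers and its CLF RIP values under its own identifier, so listing and group cannot be told apart.

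Replication genes and mitotic genes had medians below 0, with none called in limma. Of the S phase genes 6 of 8 tested differences were below 0 (median -0.19, from -0.52 to -0.28 under the other scalings). The named helicase subunits MCM2, MCM4 and MCM7 overlapped between groups and lay between 0.676 and 5.11 FPKM. MCM4 had the highest of these values in CLF RIP replicate 1, under a serial number, and 0.741 FPKM in CLF RIP replicate 2, under its own identifier. Of the M phase genes 7 of 10 were below 0 (median -0.37, from -0.70 to -0.53 under the other scalings). Over all tested genes 5405 of 14701 differences were below 0. Both CLF RIP values lay below both control values in 5 of the 10 M phase genes (18.9% of all tested genes) and above in 3 (40.6%). The 3 M phase genes named here are those with the smallest p. MYB3R1, a regulator of mitotic genes, was at 24.4 and 13.4 FPKM in the controls, against 9.54 and 4.20 FPKM in the CLF RIP (adjusted p = 0.228 in limma). Its relative MYB3R4 was higher in both CLF RIP libraries, at 1.64 and 1.70 FPKM in the controls, against 3.12 and 3.99 FPKM in the CLF RIP, as did the spindle gene TPX2, at 3.61 and 2.82 FPKM against 5.03 and 5.01 FPKM.

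The anaphase promoting complex, which marks mitotic cyclins for degradation, and its activators had 5 of 8 tested differences above 0 and none called (median 0.31, -0.07 with structural RNA left out). Its activator CDC20.1 was at 13.4 and 14.9 FPKM in the controls, against 29.6 and 20.9 FPKM in the CLF RIP. It was under its own identifier in the controls and under serial numbers in the CLF RIP, so listing and group cannot be told apart. The subunit gene APC2 was at 2.18 and 2.16 FPKM in the controls, against 3.42 and 10.9 FPKM in the CLF RIP, and HBT was at 9.37 and 13.1 FPKM against 48.1 and 15.0 FPKM. These 3 genes, named for the smallest p, were the 3 of 8 with both CLF RIP values above both control values (40.6% of all tested genes), and in 1 of 8, CCS52B, both were below (4.15 and 3.49 FPKM against 2.74 and 2.75 FPKM). In APC2 and HBT the CLF RIP libraries differed widely from each other.

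**Figure D4:**
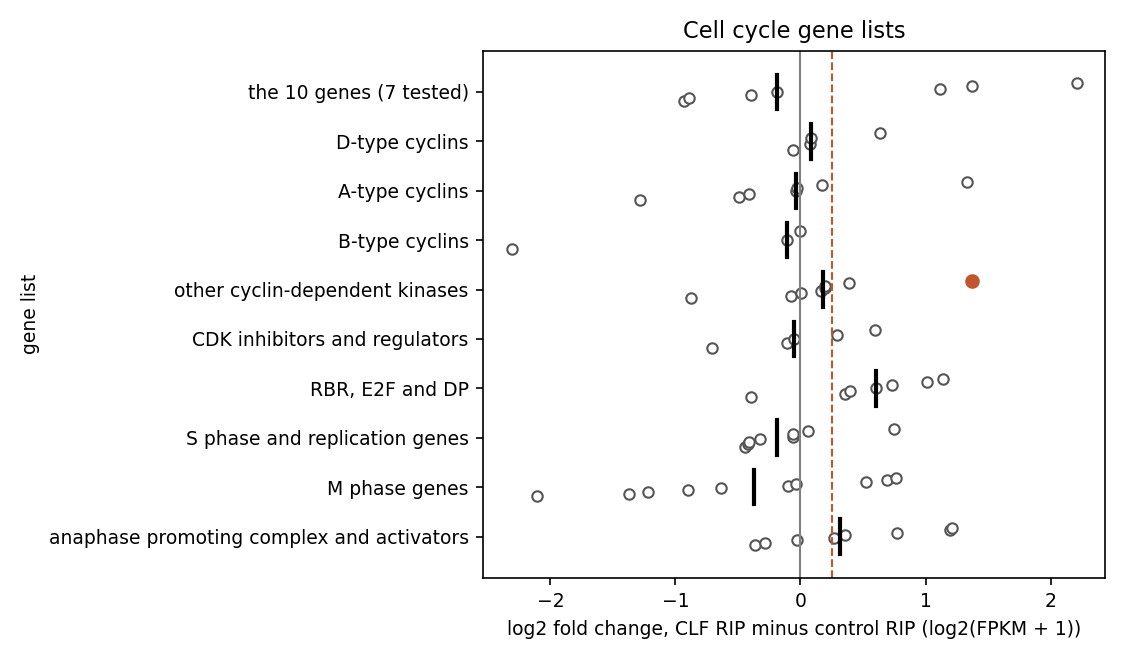
Difference between CLF RIP and control RIP on the log2(FPKM + 1) scale for each tested gene, 1 circle per gene, for the 10 genes and the 9 further cell cycle lists, with each list's median as a black bar. The filled circle is CDKG;1, the only gene called in limma, and the dashed line is the median of all tested genes at 0.25. List medians run from -0.37 for M phase genes to 0.61 for RBR, E2F and DP.

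Markers of cell types are given beside these values for their whole lists. Of 4 leaf mesophyll genes, 3 were joined and all 3 were called lower in the CLF RIP in limma, as were 0.565% of all tested genes. Their summed level was 1969 and 1920 FPKM in the controls against 594 and 586 FPKM. RBCS1A, a Rubisco subunit gene, accounted for most of it with 1308 and 1290 FPKM against 406 and 396 FPKM. None of the 3 was called with a library left out, with the replicate number as a block (adjusted p = 0.215 in limma) or without trend and robust prior (0.0657 to 0.0845), and 2 of the 3 were called with no filter. Of 4 shoot meristem genes, 2 were tested and 0 were called, and the list summed to 21.9 and 29.7 FPKM in the controls against 8.08 and 12.7 FPKM. STM stood at 9.45 and 11.4 against 2.23 and 6.67 FPKM, KNAT1 at 11.8 and 18.3 against 5.85 and 6.04 FPKM, and CLV3 and WUS were listed at 0 in 3 of the 4 libraries. For STM and KNAT1 both CLF RIP values were below both control values, as in 18.9% of all tested genes. The lowest STM value was the only one under its own identifier.

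Of 5 root genes, 2 were tested and 0 were called, with sums of 5.53 and 5.75 FPKM in the controls against 5.65 and 5.84 FPKM. SCR and SHR made up nearly all of it, and COBL9, WOX5 and PHT1;1 were listed at 0.434 FPKM or lower in all libraries. The sums therefore stand for SCR and SHR and are no measure of root tissue. Of 3 stomatal lineage genes, 3 were tested and 0 were called. SPCH was higher in both CLF RIP libraries, with 4.16 and 5.02 against 54.2 and 5.56 FPKM. MUTE was lower, with 2.57 and 1.84 against 1.52 and 0.764 FPKM, and FAMA was higher, with 16.5 and 11.1 against 17.2 and 24.0 FPKM. Of all tested genes, 40.6% were higher in both CLF RIP libraries in this way and 18.9% lower. The part of any of these differences in the values of the cyclin and CDK genes was not tested.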

How the data were processed

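FPKM values per locus were deposited by the authors, 1 table per library. The submitters' processing notes name Trimmomatic, TopHat2 2.0.10 and the build TAIR10. FPKM came from a program not given in the sources used here. Coordinates are those of the tables. Names came from a RefSeq table, which was also used for gene spans that no table gave. It lacked the names CYCB2;5, CDKD;3, CDKG;2 and KRP4.

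Genes with a span of at least 300 bp were joined by their own identifier or by a serial-number locus with a reciprocal overlap of at least 0.8. Another 199 genes were left out because such a locus was at or above the value of 1 read on 75 bp. The test used limma 3.58.1 (R 4.3.3) with trend and robust prior and no covariate, on the log2(FPKM + 1) scale, for every gene that reached 1 FPKM in 2 or more libraries. P-values were adjusted by Benjamini-Hochberg, and 0.05 was the threshold. For low genes a fold on this scale is smaller than that of the FPKM. Joining and figures used Python 3.11.15, pandas 2.3.3, numpy 2.4.6 and matplotlib 3.10.9. The test was checked on simulated data.

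Depth and a length offset, 206 bp in every library, were fitted so that loci with few reads gave whole reads. Within 0.1, 80.1% to 83.6% of them did. Read numbers are upper limits, as transcripts can be shorter than the gene span, and cover counting error only. A count test was not run, since transcript lengths were not used here. An exact 0 can be a failed estimate.

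All 10 genes are named, and of each further list every gene past the threshold and the 3 with the smallest p. Members and lists were chosen with earlier results of these data known. Alternatives were other pseudocounts, filters, scalings, joining rules and priors, each library left out, and replicate number as a block. Same-numbered libraries did not deviate together (r = 0.02 over 14701 genes), so the numbers were not taken as pairs. No protein, promoter or genome sequence was used.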

Additional observations from a re-analysis of the deposited data

How the results depend on the processing

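None of the 10 genes was called under any alternative that tested them in limma, where 0 to 4 had an unadjusted p under 0.05. Over all tested genes, 38 were higher and 39 lower with a pseudocount of 5, 85 higher and 226 lower with no filter, 48 higher and 74 lower with structural RNA left out, 0 and 0 without trend and robust prior (3731 at an unadjusted limma p under 0.05), 304 and 204 with own identifiers only, 0 and 1 with the replicate block, and 0 higher and 0 to 1 lower with a library left out (1638 to 3544 unadjusted). The median log2 difference of the tested genes among the 10 was -0.54 with a minimum of 5 FPKM (4 genes), -0.51 under quantile normalization (7 genes), -0.68 with structural RNA left out (8 genes), 1.11 with an overlap of 0.9 (5 genes), 0.46 with the loci at the value of 1 short read kept (8 genes, an alternative chosen after seeing the data), -0.19 with the replicate block, and -0.42 to 0.05 with a library left out (7 genes each). Own identifiers only tested none of the 10. The median of all genes was 0.25 as deposited, 0.02 under quantile normalization, 0.01 under median-of-ratios scaling, and -0.12 where structural RNA was removed. Signs turned for CYCB2;4 (0.0042 at a pseudocount of 0.25), for CYCD4;1 and CYCD6;1 (-0.074 and -0.067 under median-of-ratios scaling, then -0.16 and -0.15 where structural RNA was left out), and for CDKE;1 (-0.037) and SIM (-0.10) with structural RNA left out. With a library left out, signs turned within -0.43 to 0.052 for AT3G48750, -0.42 to 4.84 for AT4G37490, -1.21 to 3.96 for AT5G06150, -2.59 to 0.022 for AT1G44110, -0.23 to 0.23 for AT1G76310, -0.18 to 1.37 for AT5G27620, -0.95 to 0.12 for MCM7, -0.35 to 0.086 for AT4G35620 and -0.0069 to 0.17 for AT4G03270. The cause was not tested. These fits assume that a lone library varies like those of the other group. With the replicate block, CDKG;1 had an adjusted p of 0.215 in limma. With 2 libraries a group and low CLF RIP depth, the wide intervals limit what could be detected.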
